A study of Mus musculus with 12 samples.

Results

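Genes that carry out DNA replication and mark S phase were followed through 4 h of lipopolysaccharide (LPS) in mouse bone marrow-derived macrophages of 2 genotypes. The 41 genes were chosen by symbol among the 54532 genes of the deposited count table, for what their products do. All 41 passed the filter on low counts, as did 14286 genes in all.

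The 12 RNA-seq libraries, made from total RNA, formed 4 groups of 3, each from macrophages grown out of bone marrow with 10 ng/ml macrophage colony-stimulating factor (M-CSF), and the labels put every mouse at 8 weeks of age. The groups were Lyz2-Cre-Hdac3f/f macrophages with 500 ng/ml LPS for 4 h, Hdac3f/f macrophages with the same LPS treatment, Lyz2-Cre-Hdac3f/f macrophages kept for 4 h in medium alone, and Hdac3f/f macrophages kept in medium alone. Every group carried the floxed Hdac3 allele, so the Hdac3f/f cells are floxed cells without the Cre transgene and not wild type. Hdac3 is a histone deacetylase that works as part of nuclear corepressor complexes. The Cre recombinase was driven from the Lyz2 locus, which is active in monocytes, macrophages and neutrophils, so cells of other lineages in the cultures keep the floxed allele.

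Replication starts at origins that were licensed beforehand. The origin recognition complex, Cdc6 and Cdt1 load the Mcm2 to Mcm7 ring onto DNA, Cdc45 and the GINS proteins turn that ring into a moving helicase, and polymerases with the Pcna clamp and its loader then copy the strands. E2F factors, held back by the retinoblastoma protein until cyclin-dependent kinases act, transcribe most of these genes at the entry into S phase. Macrophages from bone marrow divide in response to M-CSF, and LPS is known to stop that division.

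Library totals ranged from 16553432 to 18706990 counts, and the factors of the TMM scaling (trimmed mean of M values) ranged from 0.716 to 1.26. Hdac3 averaged 37.0 ± 2.36 CPM, the read count scaled to library size with TMM factors, in LPS-treated Lyz2-Cre-Hdac3f/f libraries and 39.4 ± 1.08 CPM in LPS-treated Hdac3f/f libraries (SD, n = 3 each). It averaged 34.9 ± 1.75 CPM in untreated Lyz2-Cre-Hdac3f/f libraries and 38.4 ± 1.86 CPM in untreated Hdac3f/f libraries (SD, n = 3 each). Its log2 fold change between genotypes was -0.09 (SE 0.09, adjusted p = 0.473) with LPS and -0.14 (SE 0.09, adjusted p = 0.352) without it. The deposited count covers the whole gene and not the deleted part alone, so it does not check the genotype labels. The Lyz2 gene itself stood at 31.0 CPM in the library labelled untreated Lyz2-Cre-Hdac3f/f replicate 1, against 5176 and 5632 CPM in the other libraries of that group and 9310 to 11979 CPM in untreated Hdac3f/f libraries. The same library held other macrophage genes, with Csf1r at 2370 CPM and Adgre1 at 1755 CPM. In the comparisons that use it, the counts over the 41 genes are given with and without it. Over further lists only some counts are given without it. All 10 macrophage markers checked were detected in all 12 libraries.

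Collagen and other stromal markers differed between the genotypes. Their summed level over 5 genes was 20.0, 22.2 and 23.4 CPM in LPS-treated Lyz2-Cre-Hdac3f/f libraries, against 769, 1097 and 1618 CPM in LPS-treated Hdac3f/f libraries. Untreated Lyz2-Cre-Hdac3f/f libraries summed to 15.0, 126 and 38.3 CPM, against 1330, 277 and 437 CPM in untreated Hdac3f/f libraries. Lum was at 0 in untreated Lyz2-Cre-Hdac3f/f replicates 1 and 3. The 5 blood progenitor markers summed to 45.2 to 75.9 CPM in LPS-treated Lyz2-Cre-Hdac3f/f libraries and 26.3 to 39.2 CPM in LPS-treated Hdac3f/f libraries. They summed to 33.5 to 47.0 CPM in untreated Lyz2-Cre-Hdac3f/f libraries and 21.2 to 29.4 CPM in untreated Hdac3f/f libraries. Kit and Gata2 made up most of these sums, at means of 28.5 and 24.8 CPM in LPS-treated Lyz2-Cre-Hdac3f/f libraries. Between genotypes, 5 of the 5 changes were above 0 with LPS and 4 without it, and 1 marker was called in each comparison. Untreated Myb averaged 1.94 CPM in Lyz2-Cre-Hdac3f/f and 2.39 CPM in Hdac3f/f libraries. The part of these cell types in the genotype results below was not tested.

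Per unit length the replication genes were expressed at very different levels. In deposited FPKM (fragments per kilobase, scaled to the mapped fragments of the library), averaged over the 12 libraries, the median gene stood at 2.13 FPKM and 10 of the 41 genes were under 1 FPKM. Pcna, the sliding clamp, was the highest at 101 FPKM. It was followed by the licensing factor Cdt1 at 14.4 FPKM, the polymerase alpha subunit Pola2 at 10.8 FPKM and the transcription factor E2f1 at 10.1 FPKM. Orc1, the largest subunit of the origin recognition complex, was the lowest at 0.288 FPKM. Within the polymerase alpha complex the levels were uneven, since the catalytic subunit Pola1 stood at 0.459 FPKM beside 10.8 FPKM for Pola2.

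The E2F binding motif was counted in the promoters of these genes, because E2F targets are the textbook core of the S phase program. RefSeq promoters of build GRCm38.p6, from 250 bases before to 50 bases after each RefSeq start, were found for 34 of the 41 genes (40 promoters). The motif was searched in 3 forms on both strands: TTTCGCGC, TTTGGCGC and TTTCCCGC. At least 1 form was present in 14 of the 40 promoters (35.0%), against 1.84% of all 32851 promoters of the same length and 2 of 23 promoters of mitosis genes (8.7%). TTTCGCGC was in 17.5% of the 40 and 0.323% of all promoters, TTTGGCGC in 15.0% and 0.514%, and TTTCCCGC in 15.0% and 1.07%. The forms TTTCGCGC and TTTGGCGC overlap each other on opposite strands in the Mcm5 and Mcm6 promoters and were counted once there in the total for any form. The 14 genes with a match were Cdc6, Cdt1, E2f2, Gins3, Lig1, Mcm3, Mcm5, Mcm6, Mcm7, Orc1, Pola1, Pold1, Rfc3 and Uhrf1. A match describes these letters and is not evidence of binding.

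The 200 bases upstream of a RefSeq start are shown for 4 of these genes, since they went different ways in the counts: Pola1 and Cdc6 were lower with LPS in Hdac3f/f macrophages, Rfc3 was higher, and Uhrf1 had the largest genotype difference without LPS. Each is written 5′ to 3′ on the gene's strand, with the motif in capitals where it occurs on either strand. In GRCm38.p6, Cdc6 is at chr11:98907951-98908150 (plus strand), Pola1 at chrX:93632156-93632355 (minus strand), Rfc3 at chr5:151651209-151651408 (minus strand) and the promoter of Uhrf1 that holds a match at chr17:56304113-56304312 (plus strand). By the coordinates deposited with the counts, Cdc6 starts at chr11:98907801 and Uhrf1 at chr17:56303321, so their windows lie inside the genes. The Rfc3 window partly overlaps its gene, which reaches chr5:151651242. The match shown begins 138 bases before the start in Cdc6 and in Pola1, 10 bases before it in Rfc3 and 185 bases before it in Uhrf1. Rfc3 has a further match, TTTCCCGC on the opposite strand, that begins at the start itself and so lies past the bases shown.
Cdc6: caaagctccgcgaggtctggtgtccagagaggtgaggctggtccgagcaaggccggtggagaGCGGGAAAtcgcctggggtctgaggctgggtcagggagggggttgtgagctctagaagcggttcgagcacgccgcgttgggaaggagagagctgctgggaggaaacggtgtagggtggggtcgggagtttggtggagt
Pola1: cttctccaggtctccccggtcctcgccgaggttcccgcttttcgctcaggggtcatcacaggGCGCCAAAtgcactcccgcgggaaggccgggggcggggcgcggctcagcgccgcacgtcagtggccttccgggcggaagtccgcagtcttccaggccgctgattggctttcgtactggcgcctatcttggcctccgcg
Rfc3: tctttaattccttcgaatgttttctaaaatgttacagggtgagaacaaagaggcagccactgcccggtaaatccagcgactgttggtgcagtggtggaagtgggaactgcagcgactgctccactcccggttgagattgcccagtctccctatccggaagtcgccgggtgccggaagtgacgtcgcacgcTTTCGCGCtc
Uhrf1: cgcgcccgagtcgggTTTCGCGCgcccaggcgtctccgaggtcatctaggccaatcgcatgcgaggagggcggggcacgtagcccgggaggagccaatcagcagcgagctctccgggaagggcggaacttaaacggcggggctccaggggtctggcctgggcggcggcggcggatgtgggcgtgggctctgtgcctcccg
The Pola1 and Cdc6 motifs lie on the opposite strand, where they read TTTGGCGC and TTTCCCGC.

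How did the replication genes respond to LPS in each genotype? Most were lower after 4 h in both, and the median change was larger in Hdac3f/f macrophages. In Lyz2-Cre-Hdac3f/f macrophages 21 of the 41 genes were called lower, beside 27.7% of all tested genes, and 5 were called higher, beside 25.2%. In Hdac3f/f macrophages 31 were called lower, beside 32.1% of all tested genes, and 4 were called higher, beside 28%. A gene was called at an adjusted p under 0.05 in edgeR's quasi-likelihood test, with Benjamini-Hochberg adjustment over all tested genes. The median log2 fold change of the 41 genes was -0.53 in Lyz2-Cre-Hdac3f/f and -1.18 in Hdac3f/f macrophages, beside -0.08 over all tested genes in each. The summed level of the 41 genes was 566, 580 and 656 CPM in LPS-treated Lyz2-Cre-Hdac3f/f libraries, against 780, 773 and 789 CPM in untreated ones. It was 600, 727 and 688 CPM in LPS-treated Hdac3f/f libraries, against 927, 1144 and 1294 CPM in untreated ones, so that the groups did not overlap in either genotype. Pcna was the largest part of these sums. It averaged 205 CPM of a mean sum of 780 CPM in untreated Lyz2-Cre-Hdac3f/f libraries, and 369 of 1122 CPM in untreated Hdac3f/f libraries. In bulk RNA, fewer cells in S phase and less RNA of these genes per cell cannot be told apart.

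The count in Lyz2-Cre-Hdac3f/f macrophages was the less stable one. It was 13 lower without untreated Lyz2-Cre-Hdac3f/f replicate 3 or without LPS-treated replicate 2, 17 lower and 4 higher without the library labelled untreated replicate 1, and 36 lower and 3 higher when libraries were scaled by their totals in place of TMM, which moved the median of all genes to -0.46 here and to -0.72 in Hdac3f/f macrophages.

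**Figure D1:**
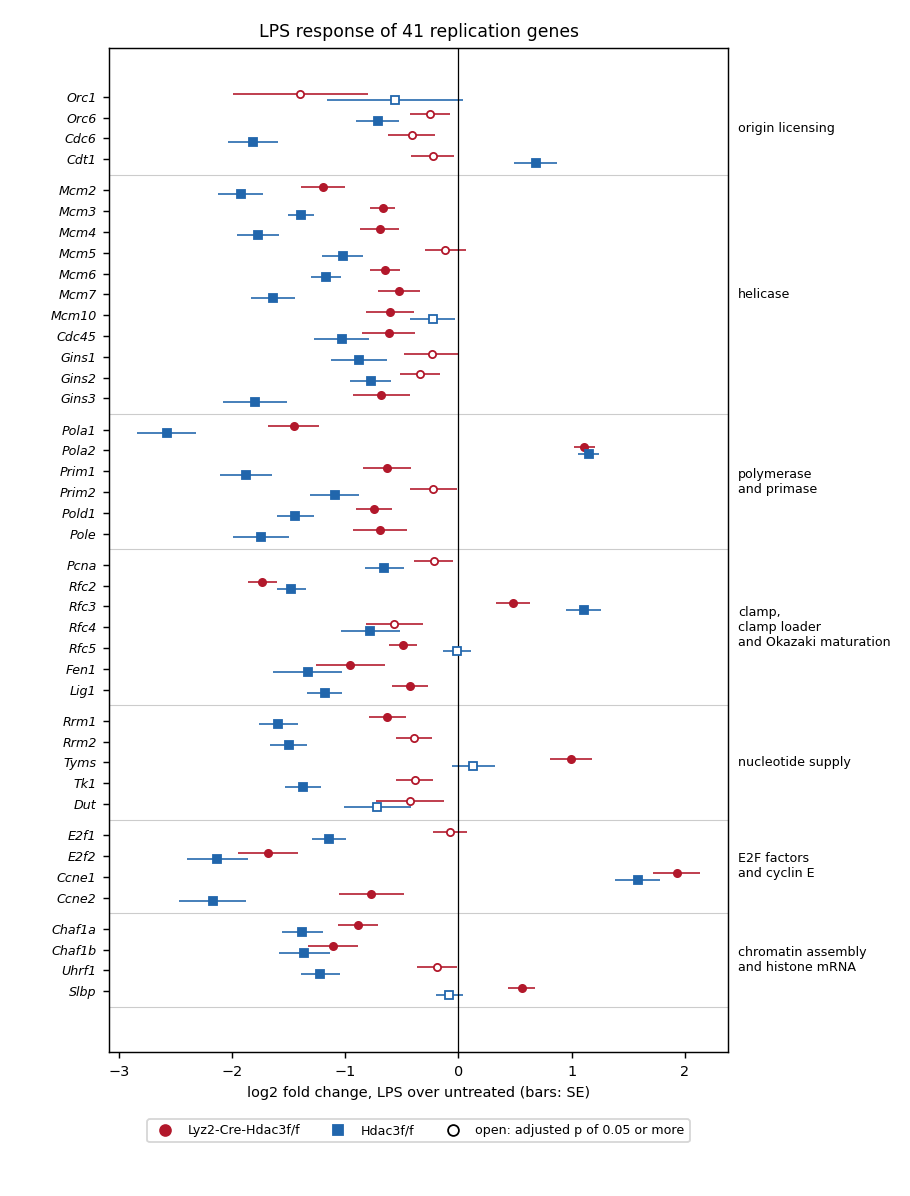
Log2 fold change of each of the 41 genes with LPS over untreated, with its standard error, in Lyz2-Cre-Hdac3f/f (red circles) and Hdac3f/f macrophages (blue squares), grouped by role. Open symbols mark an adjusted p of 0.05 or above. Most blue squares lie left of their red circles, and Ccne1, Pola2 and Rfc3 lie right of 0 in both genotypes.

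Among the 4 origin licensing genes none was called in Lyz2-Cre-Hdac3f/f macrophages, while Cdc6 and Orc6 were lower and Cdt1 higher in Hdac3f/f macrophages. Cdc6, the ATPase that helps to load the Mcm ring (mm10 chr11:98907801-98923940), had 2.35, 3.00 and 3.01 CPM in LPS-treated Lyz2-Cre-Hdac3f/f libraries, against 4.56, 3.56 and 3.03 CPM in untreated ones. In Hdac3f/f macrophages it had 1.39, 1.48 and 1.60 CPM with LPS, against 4.68, 5.64 and 5.47 CPM untreated. The Hdac3f/f groups stood wide apart, and the change was -1.82 (SE 0.22, adjusted p = 1.16e-05), beside -0.41 (SE 0.21, adjusted p = 0.11) in Lyz2-Cre-Hdac3f/f macrophages. Cdt1, the other loading factor (mm10 chr8:122568015-122573554), went the opposite way in Hdac3f/f macrophages. It had 59.3, 86.1 and 73.5 CPM with LPS, against 37.4, 45.4 and 53.5 CPM untreated, a log2 fold change of 0.68 (SE 0.19, adjusted p = 0.00706) that was 0.04 (adjusted p = 0.811) under scaling by library totals. In Lyz2-Cre-Hdac3f/f macrophages Cdt1 had 23.8, 28.2 and 35.5 CPM with LPS, against 40.8, 32.8 and 29.0 CPM untreated, groups that overlapped. Orc6, a subunit of the origin recognition complex, averaged 2.36 ± 0.329 CPM with LPS and 3.88 ± 0.147 CPM untreated in Hdac3f/f macrophages (SD, n = 3 each). Orc1 was near the limit of detection, with 0 to 1.25 CPM in the LPS-treated Hdac3f/f libraries, and was not called in either genotype.

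Genes of the replicative helicase were mostly lower with LPS. Of the 11 genes, 8 were lower with LPS in Lyz2-Cre-Hdac3f/f and 10 in Hdac3f/f macrophages, with median log2 fold changes of -0.62 and -1.17. Mcm3, the ring subunit with the highest CPM of the group (mm10 chr1:20802968-20820312), had 27.0, 24.7 and 27.8 CPM in LPS-treated Lyz2-Cre-Hdac3f/f libraries, against 40.6, 43.7 and 42.3 CPM in untreated ones. In Hdac3f/f macrophages it had 20.1, 17.5 and 19.9 CPM with LPS, against 45.2, 48.0 and 57.5 CPM untreated. No LPS-treated library reached an untreated one in either genotype, and the changes were -0.67 (SE 0.11, adjusted p = 0.000239) and -1.39 (SE 0.11, adjusted p = 3.03e-07). The ring subunits Mcm2 and Mcm4 changed by -1.20 and -0.70 in Lyz2-Cre-Hdac3f/f macrophages and by -1.93 and -1.77 in Hdac3f/f macrophages. Mcm6 changed by -0.65 and -1.17 and Mcm7 by -0.53 and -1.64, in the same order of genotypes. Mcm5 was the ring subunit not called in Lyz2-Cre-Hdac3f/f macrophages (-0.12, SE 0.18, adjusted p = 0.61), beside -1.02 in Hdac3f/f macrophages.

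The helicase activators followed. Cdc45, which binds the ring together with GINS, changed by -0.62 in Lyz2-Cre-Hdac3f/f macrophages, where its groups overlapped, and by -1.03 in Hdac3f/f macrophages. The Lyz2-Cre-Hdac3f/f call was lost in 13 of 19 alternatives (adjusted p up to 0.176). Of the GINS subunits, Gins3 was lower in both (-0.68, a call lost in 9 of 19 alternatives, and -1.80), and Gins1 (-0.88) and Gins2 (-0.78) were called in Hdac3f/f macrophages. Mcm10, which helps the helicase to fire, behaved otherwise. It had 1.75, 2.19 and 3.13 CPM in LPS-treated Lyz2-Cre-Hdac3f/f libraries, against 3.59, 3.51 and 3.68 CPM in untreated ones, and 5.28, 4.36 and 5.29 CPM in LPS-treated Hdac3f/f libraries, against 5.63, 6.37 and 5.52 CPM in untreated ones. Its change was -0.61 (SE 0.21, adjusted p = 0.029) in Lyz2-Cre-Hdac3f/f macrophages, and -0.40 (adjusted p = 0.152) without LPS-treated replicate 1, beside -0.23 (SE 0.20, adjusted p = 0.348) in Hdac3f/f macrophages.

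The polymerases and the primase included the largest fall and a clear rise. Pola1, the catalytic subunit of polymerase alpha that extends primers (mm10 chrX:93304767-93632155), had 2.95, 2.71 and 2.0 CPM in LPS-treated Lyz2-Cre-Hdac3f/f libraries, against 7.18, 6.98 and 6.96 CPM in untreated ones. In Hdac3f/f macrophages it had 1.18, 1.17 and 0.653 CPM with LPS, against 7.15, 6.03 and 4.85 CPM untreated. The groups were apart in both genotypes, with changes of -1.46 (SE 0.23, adjusted p = 0.000134) and -2.58 (SE 0.26, adjusted p = 1.83e-06). The change in Hdac3f/f macrophages was the most negative of the 41 genes. Pola2, the accessory subunit of the same enzyme (mm10 chr19:5940543-5964206), was higher by about the same amount in both genotypes. It had 41.1, 42.1 and 42.4 CPM in LPS-treated Lyz2-Cre-Hdac3f/f libraries, against 19.3, 18.4 and 20.3 CPM in untreated ones. It had 44.1, 46.6 and 41.7 CPM in LPS-treated Hdac3f/f libraries, against 20.3, 18.7 and 20.5 CPM in untreated ones. These 2 changes were 1.11 (SE 0.09, adjusted p = 5.34e-07) and 1.15 (SE 0.09, adjusted p = 2.69e-07), so that the subunits of polymerase alpha went opposite ways. The primase subunit Prim1, which makes the RNA primers, changed by -0.63 in Lyz2-Cre-Hdac3f/f and -1.88 in Hdac3f/f macrophages, and its partner Prim2 was called in Hdac3f/f macrophages (-1.09). Pold1 and Pole, the catalytic subunits that copy the lagging and the leading strand, changed by -0.75 and -0.70 in Lyz2-Cre-Hdac3f/f macrophages and by -1.44 and -1.74 in Hdac3f/f macrophages.

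Of the 7 genes of the clamp, its loader and Okazaki fragment maturation, 4 were lower and 1 higher in Lyz2-Cre-Hdac3f/f macrophages, and 5 were lower and 1 higher in Hdac3f/f macrophages. Pcna (mm10 chr2:132249162-132253314) had 162, 170 and 197 CPM in LPS-treated Lyz2-Cre-Hdac3f/f libraries, against 209, 205 and 202 CPM in untreated ones. In Hdac3f/f macrophages it had 200, 274 and 226 CPM with LPS, against 263, 387 and 456 CPM untreated. The Hdac3f/f groups overlapped although the change was called (-0.66, SE 0.17, adjusted p = 0.0053), and the Lyz2-Cre-Hdac3f/f change was -0.22 (SE 0.17, adjusted p = 0.306).

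The subunits of the clamp loader, replication factor C, did not move as a unit. Rfc2 (mm10 chr5:134581366-134601805) had 24.0, 26.0 and 29.4 CPM in LPS-treated Lyz2-Cre-Hdac3f/f libraries, against 83.9, 84.8 and 95.3 CPM in untreated ones. It had 24.3, 32.0 and 33.0 CPM in LPS-treated Hdac3f/f libraries, against 79.7, 82.0 and 87.0 CPM in untreated ones. The groups were far apart, with changes of -1.73 (SE 0.13, adjusted p = 1.48e-07) and -1.48 (SE 0.13, adjusted p = 4.37e-07). Lat2, an adaptor gene on the opposite strand that overlaps 8.73% of Rfc2, held 111% as many counts as Rfc2 and changed by -2.05 and -1.16, and without the strand of the counting their reads cannot be told apart. Rfc3 (mm10 chr5:151642756-151651242) went up. It had 12.3, 14.7 and 18.2 CPM in LPS-treated Lyz2-Cre-Hdac3f/f libraries, against 10.3, 11.0 and 11.0 CPM in untreated ones, and 18.8, 25.2 and 22.0 CPM in LPS-treated Hdac3f/f libraries, against 9.62, 9.92 and 11.1 CPM in untreated ones. Its changes were 0.48 (SE 0.15, adjusted p = 0.0181), which was 0.09 under scaling by library totals, and 1.11 (SE 0.15, adjusted p = 3.85e-05). Rfc5 was lower in Lyz2-Cre-Hdac3f/f macrophages (-0.49) and at -0.01 (SE 0.12, adjusted p = 0.951) in Hdac3f/f macrophages, where Rfc4 was lower (-0.78). The Rfc4 call was lost in 3 of 19 alternatives. Eif4a2, on the opposite strand over 1.41% of Rfc4, held 3370% as many counts and changed by -1.16 in Hdac3f/f macrophages. Reads of these 2 genes cannot be told apart where they overlap. The flap endonuclease Fen1 changed by -0.96 in Lyz2-Cre-Hdac3f/f and -1.33 in Hdac3f/f macrophages, and the nick-sealing ligase Lig1 by -0.43, a call lost in 10 of 19 alternatives, and -1.18.

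Enzymes of deoxynucleotide supply were split. Rrm1, the large subunit of ribonucleotide reductase (mm10 chr7:102441695-102469771), had 14.2, 16.5 and 14.4 CPM in LPS-treated Lyz2-Cre-Hdac3f/f libraries, against 21.3, 24.4 and 24.2 CPM in untreated ones. It had 10.4, 6.07 and 9.43 CPM in LPS-treated Hdac3f/f libraries, against 28.6, 26.4 and 23.5 CPM in untreated ones. Both pairs of groups were apart, with changes of -0.63 (SE 0.16, adjusted p = 0.00576) and -1.59 (SE 0.17, adjusted p = 3.62e-06). The small subunit Rrm2 was called in Hdac3f/f macrophages (-1.50, beside -0.40 in Lyz2-Cre-Hdac3f/f, adjusted p = 0.0539), and so was thymidine kinase Tk1 (-1.38, beside -0.39, adjusted p = 0.0617). Tyms, which makes thymidylate (mm10 chr5:30058202-30073617), was higher with LPS in Lyz2-Cre-Hdac3f/f macrophages. It had 6.03, 5.66 and 4.39 CPM in LPS-treated Lyz2-Cre-Hdac3f/f libraries, against 2.86, 2.67 and 2.53 CPM in untreated ones, a change of 0.99 (SE 0.19, adjusted p = 0.000655). In LPS-treated Hdac3f/f libraries it had 4.58, 3.50 and 4.57 CPM, against 3.60, 4.08 and 3.88 CPM in untreated ones, and these groups overlapped (0.13, SE 0.19, adjusted p = 0.57). Dut, which removes dUTP, was not called in any of the 5 comparisons.

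Among the E2F factors and E cyclins, the 2 cyclins went opposite ways. Ccne1, cyclin E1 (mm10 chr7:38097984-38107534), had 9.47, 12.1 and 12.2 CPM in LPS-treated Lyz2-Cre-Hdac3f/f libraries, against 3.59, 2.71 and 2.53 CPM in untreated ones. It had 10.8, 13.6 and 16.2 CPM in LPS-treated Hdac3f/f libraries, against 3.94, 4.28 and 5.31 CPM in untreated ones. Its changes of 1.93 (SE 0.21, adjusted p = 4.87e-06) and 1.59 (SE 0.20, adjusted p = 1.59e-05) were the highest of the 41 genes in either genotype. Ccne2, cyclin E2, changed by -0.77 in Lyz2-Cre-Hdac3f/f macrophages, a call lost in 9 of 19 alternatives, and by -2.17 in Hdac3f/f macrophages, at levels of 0.725 to 4.90 CPM. Ints8, on the opposite strand over 41.9% of its span, held 551% as many counts as Ccne2. E2f1, which activates S phase genes (mm10 chr2:154559407-154569892), had 28.8, 30.5 and 27.8 CPM in LPS-treated Lyz2-Cre-Hdac3f/f libraries, against 30.5, 29.5 and 31.6 CPM in untreated ones, groups that overlapped (-0.07, SE 0.15, adjusted p = 0.713). In Hdac3f/f macrophages it had 18.4, 25.6 and 21.6 CPM with LPS, against 38.2, 49.4 and 57.4 CPM untreated, a change of -1.14 (SE 0.15, adjusted p = 2.64e-05). E2f2, a related activator, changed by -1.68 in Lyz2-Cre-Hdac3f/f and -2.13 in Hdac3f/f macrophages.

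Genes of chromatin assembly behind the fork and of histone mRNA closed the set. Chaf1a and Chaf1b, subunits of chromatin assembly factor 1, changed by -0.89 and -1.11 in Lyz2-Cre-Hdac3f/f macrophages and by -1.38 and -1.36 in Hdac3f/f macrophages. Uhrf1, which brings the maintenance methyltransferase to newly copied DNA, was called in Hdac3f/f macrophages (-1.22, SE 0.17, adjusted p = 4.42e-05) and not in Lyz2-Cre-Hdac3f/f macrophages (-0.19, SE 0.18, adjusted p = 0.377). Slbp, which binds the stem-loop of histone mRNAs (mm10 chr5:33634952-33652574), had 31.0, 29.0 and 29.3 CPM in LPS-treated Lyz2-Cre-Hdac3f/f libraries, against 22.5, 17.9 and 20.3 CPM in untreated ones. It had 23.5, 21.1 and 21.5 CPM in LPS-treated Hdac3f/f libraries, against 21.1, 22.5 and 26.4 CPM in untreated ones. The groups were apart in Lyz2-Cre-Hdac3f/f macrophages, where the change was 0.56 (SE 0.12, adjusted p = 0.00147), or 0.17 (adjusted p = 0.209) under scaling by library totals. They overlapped in Hdac3f/f macrophages (-0.08, SE 0.12, adjusted p = 0.572).

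Set side by side, the LPS responses of the genotypes shared 19 genes called lower, out of 21 in Lyz2-Cre-Hdac3f/f and 31 in Hdac3f/f macrophages. Ccne1, Pola2 and Rfc3 were called higher in both. The 12 genes called lower in Hdac3f/f and not called in Lyz2-Cre-Hdac3f/f macrophages were Cdc6, E2f1, Gins1, Gins2, Mcm5, Orc6, Pcna, Prim2, Rfc4, Rrm2, Tk1 and Uhrf1. A call in 1 genotype and not in the other does not show a difference between them, and the test of that difference is given with the interaction.

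Did the genotypes differ before LPS? Untreated Lyz2-Cre-Hdac3f/f macrophages had less RNA of several replication genes than untreated Hdac3f/f macrophages, led by Uhrf1, Tk1 and Rrm2. Of the 41 genes 12 were called lower, beside 6.66% of all tested genes, and 0 were called higher, beside 5.13%. Over the 41 genes the median log2 difference was -0.46, beside 0.03 over all tested genes. The count was sensitive to single libraries: it was 7 without the library labelled untreated Lyz2-Cre-Hdac3f/f replicate 1, 6 without replicate 2 of that group, 7 without untreated Hdac3f/f replicate 2 and 6 without its replicate 3. It shares its libraries with the LPS comparisons, which use the same untreated groups. Groups did not overlap for 23 of the 41 genes, among them all 12 called ones, whose calls rest on the same values. Of all tested genes 16.5% lay lower and 20% higher without overlap.

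Uhrf1 had 10.9, 12.8 and 10.6 CPM in untreated Lyz2-Cre-Hdac3f/f libraries, against 24.4, 30.7 and 35.3 CPM in untreated Hdac3f/f libraries. The highest Lyz2-Cre-Hdac3f/f library was below the lowest Hdac3f/f library, with a log2 difference of -1.39 (SE 0.17, adjusted p = 0.000471). Tk1 had 7.86, 6.76 and 8.05 CPM in untreated Lyz2-Cre-Hdac3f/f libraries, against 13.1, 17.5 and 19.5 CPM in untreated Hdac3f/f libraries (-1.14, SE 0.16, adjusted p = 0.00102). Rrm2 had 5.29, 6.31 and 5.52 CPM in untreated Lyz2-Cre-Hdac3f/f libraries, against 9.40, 9.53 and 11.9 CPM in untreated Hdac3f/f libraries (-0.85, SE 0.15, adjusted p = 0.00536). Neither gene's groups overlapped. Pcna averaged 205 ± 3.48 CPM in untreated Lyz2-Cre-Hdac3f/f and 369 ± 97.5 CPM in untreated Hdac3f/f libraries (SD, n = 3 each; -0.84, SE 0.17, adjusted p = 0.00981). The other genes called lower were Ccne2 (-1.09), Mcm5 (-0.85), Mcm7 (-0.78), Lig1 (-0.74), Mcm10 (-0.70), E2f1 (-0.66), Gins2 (-0.59) and Mcm6 (-0.46). Helicase genes thus gave 5 of the 12 calls, a count that ranged over 1 to 6 with a library left out. No polymerase, primase or origin licensing gene was called. Calls were lost in 8 of 19 alternatives each for Mcm10 and Gins2, 6 for Mcm6, 4 each for Mcm7 and Ccne2, and 3 for E2f1. Cdt1 (-0.41, adjusted p = 0.175) and Ccne1 (-0.61, adjusted p = 0.0762) were not called.

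In the same comparison all 4 tested stromal markers were lower and all 4 mast cell and basophil markers were higher in Lyz2-Cre-Hdac3f/f macrophages. The mast cell and basophil list summed to 39.2 to 62.7 CPM there and 24.8 to 29.0 CPM in Hdac3f/f macrophages. Of the 5 blood progenitor markers 1 was called higher. Of the 8 neutrophil markers 6 were tested, 2 were called lower and all 6 values were below 0 (median -1.37). They summed to 51.6 to 136 CPM in untreated Lyz2-Cre-Hdac3f/f and 173 to 321 CPM in untreated Hdac3f/f libraries. Of the 9 lymphocyte markers 6 were tested and 3 were called higher, with sums of 13.8 to 19.9 CPM in untreated Lyz2-Cre-Hdac3f/f and 9.92 to 12.3 CPM in untreated Hdac3f/f libraries. These counts moved with single libraries left out, over 2 to 4 lower for stromal and 1 to 4 higher for mast cell and basophil markers. They ranged over 0 to 1 higher for blood progenitor, 0 to 2 lower for neutrophil and 0 to 3 higher for lymphocyte markers. Of all tested genes 5.13% were called higher and 6.66% lower. The part of these cells in the replication gene differences was not tested.

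**Figure D2:**
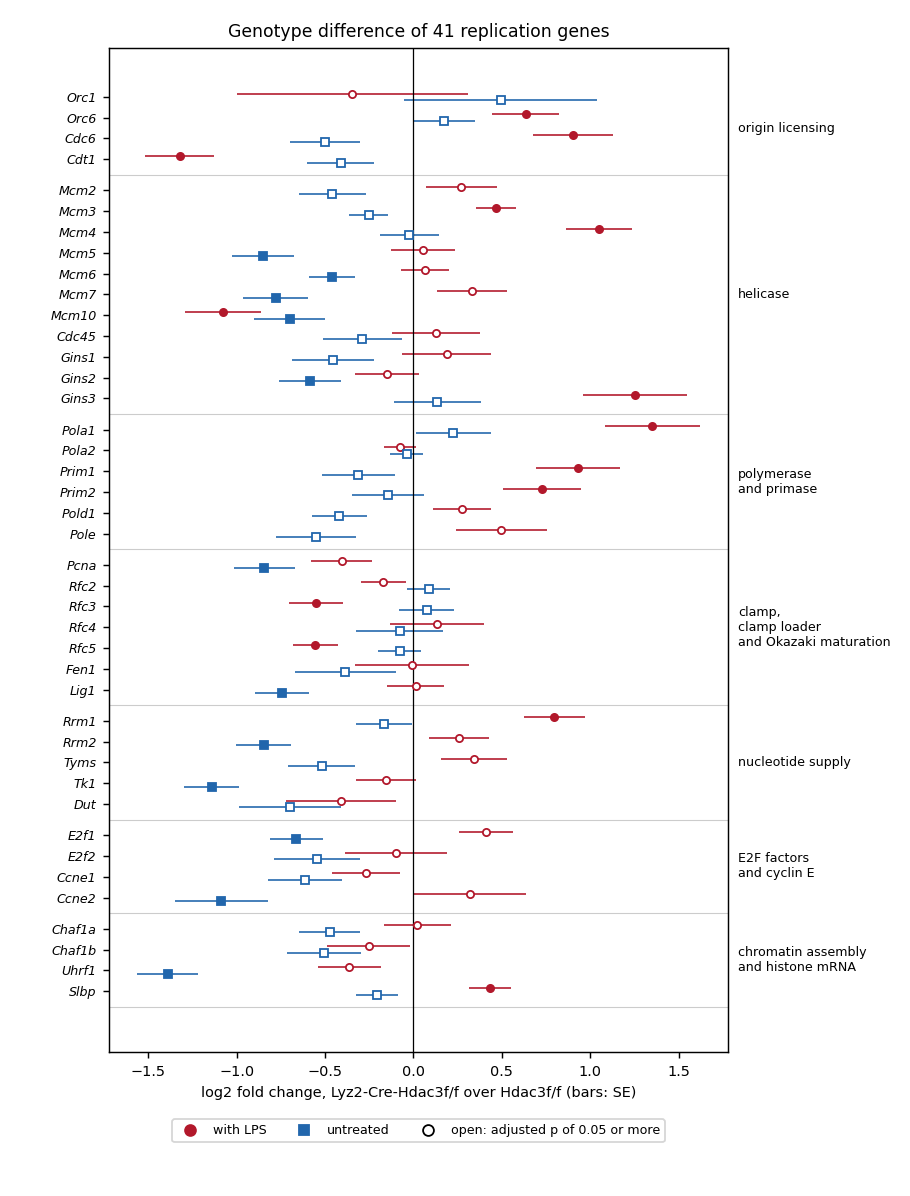
Log2 fold change of each of the 41 genes in Lyz2-Cre-Hdac3f/f over Hdac3f/f macrophages, with its standard error, with LPS (red) and untreated (blue). Open symbols mark an adjusted p of 0.05 or above. Blue points lie mostly left of 0 (median -0.46) and red points spread around 0 (median 0.13), with Cdt1 at -1.32 and Pola1 at 1.35 at the ends.

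With LPS the genotype difference no longer ran one way. In LPS-treated Lyz2-Cre-Hdac3f/f macrophages 10 of the 41 genes were called higher than in LPS-treated Hdac3f/f macrophages, beside 15.7% of all tested genes, and 4 were called lower, beside 16.9%. The median log2 difference was 0.13, beside 0.02 over all tested genes. The split depended on the scaling: with library totals in place of TMM, 16 were higher and 2 lower, and the median of all genes moved to 0.29. The higher genes were Pola1 (1.35), Gins3 (1.25), Mcm4 (1.05), Prim1 (0.93), Cdc6 (0.90), Rrm1 (0.80), Prim2 (0.73), Orc6 (0.64), Mcm3 (0.47) and Slbp (0.43). The lower genes were Cdt1 (-1.32), Mcm10 (-1.08), Rfc5 (-0.56) and Rfc3 (-0.55), and only Mcm10 was also called lower without LPS.

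Cdt1 had the lowest adjusted p of the 41 genes, at 23.8 to 35.5 CPM in LPS-treated Lyz2-Cre-Hdac3f/f libraries and 59.3 to 86.1 CPM in LPS-treated Hdac3f/f libraries (SE 0.19, adjusted p = 0.000531). Mcm4 had 11.0, 10.3 and 12.6 CPM in LPS-treated Lyz2-Cre-Hdac3f/f libraries, against 6.59, 3.82 and 5.87 CPM in LPS-treated Hdac3f/f libraries (SE 0.19, adjusted p = 0.00159). Its groups were apart, while untreated Mcm4 levels averaged 18.3 ± 2.34 CPM in Lyz2-Cre-Hdac3f/f and 18.6 ± 1.68 CPM in Hdac3f/f libraries (SD, n = 3 each). Pola1 averaged 2.56 ± 0.494 CPM in LPS-treated Lyz2-Cre-Hdac3f/f and 1.00 ± 0.301 CPM in LPS-treated Hdac3f/f libraries (SD, n = 3 each; SE 0.27, adjusted p = 0.00309). Mcm10 averaged 2.36 ± 0.707 CPM in LPS-treated Lyz2-Cre-Hdac3f/f and 4.98 ± 0.533 CPM in LPS-treated Hdac3f/f libraries (SD, n = 3 each; SE 0.22, adjusted p = 0.00308). Rfc5 had 8.02, 7.85 and 8.96 CPM in LPS-treated Lyz2-Cre-Hdac3f/f libraries, against 11.7, 11.2 and 13.6 CPM in LPS-treated Hdac3f/f libraries (SE 0.13, adjusted p = 0.00657). Wsb2, on the opposite strand over 4.56% of Rfc5, held 1380% as many counts and changed by -0.53 (SE 0.14, adjusted p = 0.0129). Vps35, on the opposite strand over 1.98% of Orc6, held 4350% as many counts and changed by 0.64 (SE 0.11, adjusted p = 0.00152). Reads of Rfc5 and Orc6 cannot be told apart from those of these neighbours where they overlap. Groups did not overlap for 17 of the 41 genes, among them all 14 called ones. Of all tested genes 20.5% lay higher and 22.7% lower without overlap, so nothing particular to the 41 genes is read from this count. The calls rest on the same values, so the lack of overlap in called genes is not separate evidence. Pcna (-0.41, adjusted p = 0.0895) and E2f1 (0.41, adjusted p = 0.0568) were not called. All 4 tested stromal markers were lower, and all 4 mast cell and basophil markers higher, in LPS-treated Lyz2-Cre-Hdac3f/f macrophages as well. Of 6 tested lymphocyte markers 4 were called higher (2 to 4 with a library left out), with sums of 15.2 to 24.2 CPM in LPS-treated Lyz2-Cre-Hdac3f/f and 5.90 to 11.7 CPM in LPS-treated Hdac3f/f libraries. Of 6 tested neutrophil markers 0 were called, with sums of 91.5 to 271 CPM and 96.7 to 215 CPM in that order.

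**Figure D3:**
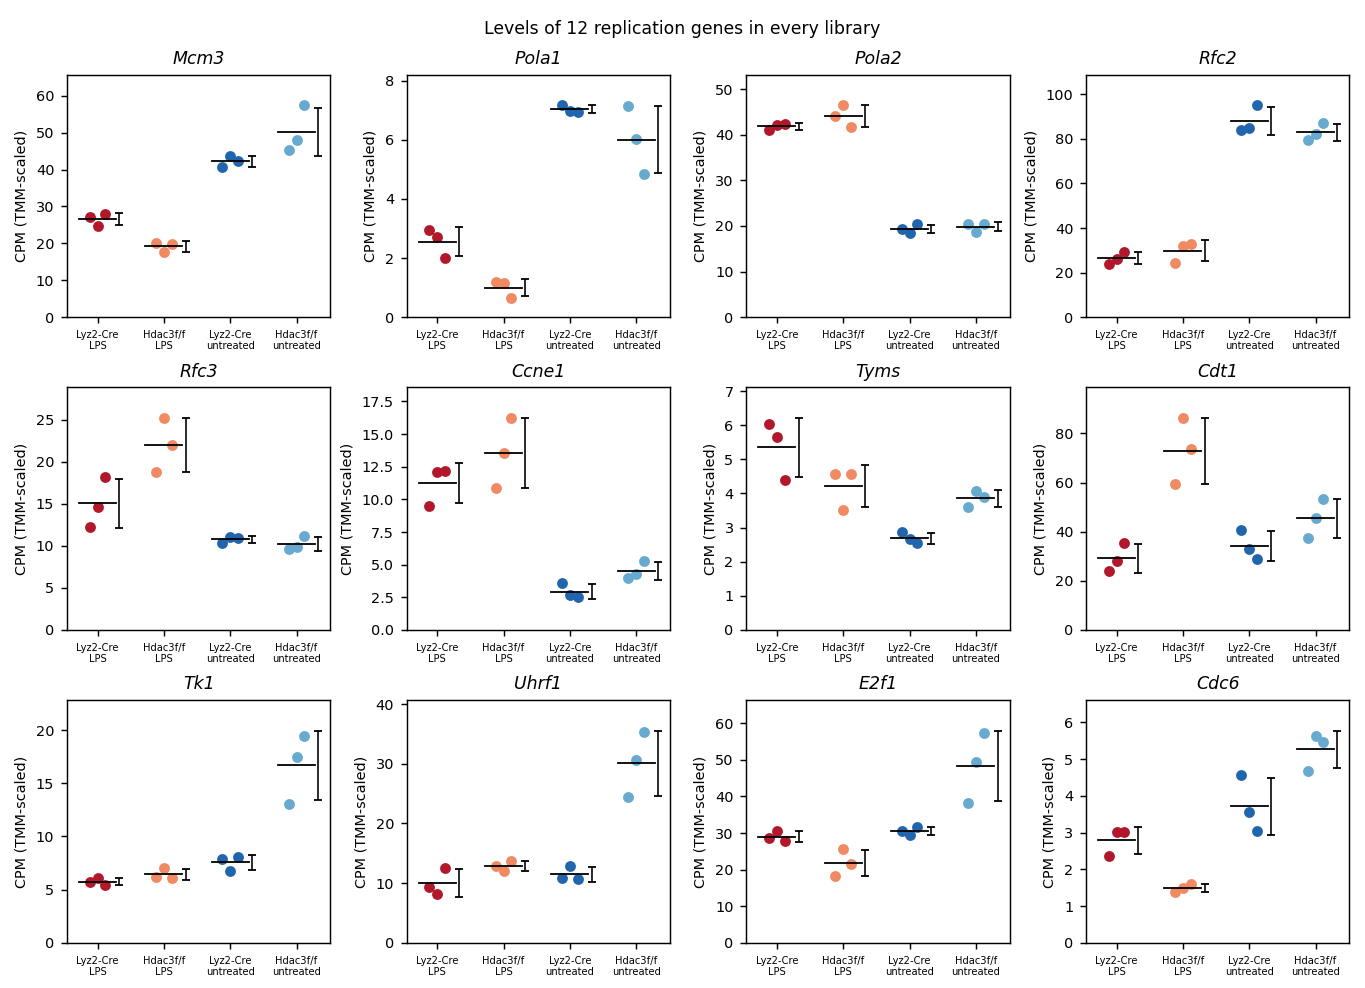
CPM of 12 replication genes in every library (Lyz2-Cre on the axis stands for Lyz2-Cre-Hdac3f/f), with the mean of each group of 3 as a line and its SD as a bar. Cdt1 is highest in LPS-treated Hdac3f/f macrophages, Uhrf1, Tk1 and E2f1 are highest in untreated Hdac3f/f macrophages, and Ccne1, Pola2 and Rfc3 are higher in the LPS-treated groups.

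The interaction asked whether the LPS response itself differed between genotypes, as the response in Lyz2-Cre-Hdac3f/f minus the response in Hdac3f/f macrophages. Of the 41 genes 12 had a positive interaction, beside 2.58% of all tested genes, and 0 a negative one, beside 5.54%. The median was 0.64, beside 0.02 over all tested genes, and 34 of the 41 values were positive. The 12 genes were Cdc6 (1.40), Prim1 (1.24), Mcm7 (1.11), Rrm2 (1.10), Mcm4 (1.07), E2f1 (1.07), Uhrf1 (1.03), Tk1 (0.99), Rrm1 (0.96), Mcm5 (0.91), Mcm3 (0.72) and Slbp (0.64). A positive value means a smaller fall with LPS in Lyz2-Cre-Hdac3f/f macrophages for 11 of them, and for Slbp a rise beside no called change in Hdac3f/f macrophages. The interaction uses the same 12 libraries as the comparisons above, so these values restate their differences and are not separate evidence. The 6 tested neutrophil markers also had positive interactions, with a median of 1.38 and 0 called, and their part in the replication gene values was not tested.

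E2f1 had the lowest adjusted p of the 41 genes in this test (SE 0.21, adjusted p = 0.00971), followed by Rrm2 (SE 0.23, adjusted p = 0.0118) and Cdc6 (SE 0.30, adjusted p = 0.0149). For E2f1 and Rrm2, and also for Mcm5, Mcm7, Tk1 and Uhrf1, the genotype difference was called, as lower, without LPS and not called with it. Untreated E2f1 averaged 30.5 ± 1.05 CPM in Lyz2-Cre-Hdac3f/f and 48.3 ± 9.67 CPM in Hdac3f/f libraries, and with LPS it averaged 29.0 ± 1.41 CPM in Lyz2-Cre-Hdac3f/f and 21.9 ± 3.62 CPM in Hdac3f/f libraries (SD, n = 3 each). For Cdc6, and also for Mcm3, Mcm4, Prim1, Rrm1 and Slbp, the genotype difference was called, as higher, with LPS and not called without it. The LPS-treated levels of Cdc6 were 2.79 ± 0.377 CPM in Lyz2-Cre-Hdac3f/f and 1.49 ± 0.104 CPM in Hdac3f/f libraries (SD, n = 3 each). Cdt1 was the most negative (-0.91, SE 0.27, adjusted p = 0.0565) and was not called, and neither were Ccne2 (1.40, SE 0.41, adjusted p = 0.0556), Pola1 (1.13, SE 0.34, adjusted p = 0.0643) and Lig1 (0.76, SE 0.22, adjusted p = 0.0537). Without the library labelled untreated Lyz2-Cre-Hdac3f/f replicate 1 the count was 6. It was 4 without untreated Hdac3f/f replicate 2, 6 without its replicate 3, 7 without untreated Lyz2-Cre-Hdac3f/f replicate 2, 7 without its replicate 3, 7 without LPS-treated Lyz2-Cre-Hdac3f/f replicate 2, and 22 under scaling by library totals, where the median of all genes was 0.27.

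**Figure D4:**
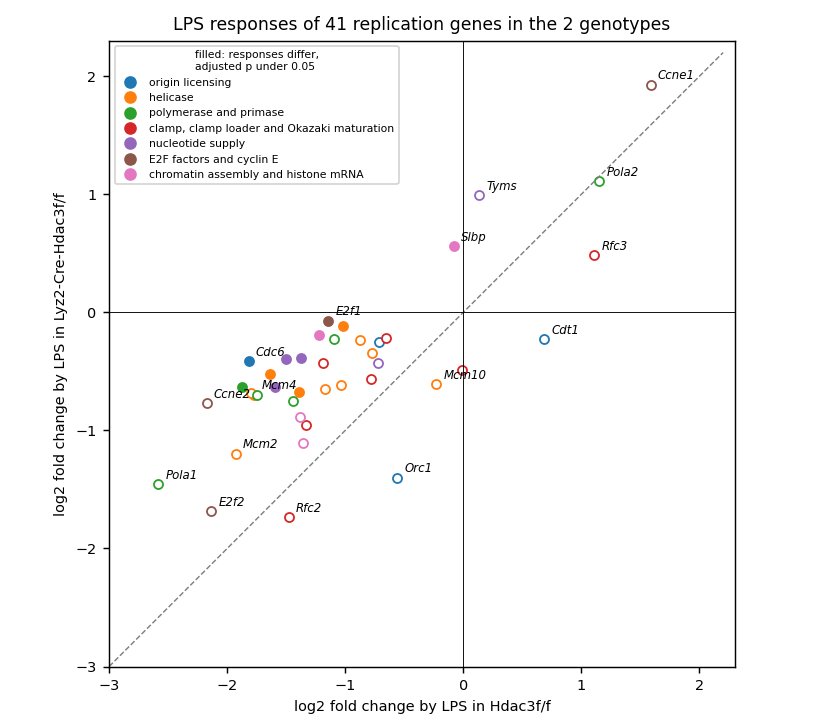
Log2 fold change with LPS in Lyz2-Cre-Hdac3f/f macrophages (y) against that in Hdac3f/f macrophages (x) for the 41 genes, with a dashed line of equality. Filled points have an interaction with adjusted p under 0.05. All 12 filled points lie above the line, and Pola2 lies on it at 1.11 and 1.15.

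Other genes of the pathway were read from lists beside the 41. Their counts stand beside the same shares of all tested genes: for LPS 27.7% lower and 25.2% higher in Lyz2-Cre-Hdac3f/f macrophages and 32.1% lower and 28% higher in Hdac3f/f macrophages. Between genotypes the shares were 15.7% higher and 16.9% lower with LPS and 5.13% higher and 6.66% lower without it, and for the interaction 2.58% positive and 5.54% negative. Of 37 further replication genes, 15 were lower and 6 higher with LPS in Lyz2-Cre-Hdac3f/f macrophages, and 24 were lower and 5 higher in Hdac3f/f macrophages. Medians were -0.36 and -0.83. With LPS, 18 were higher and 2 lower in Lyz2-Cre-Hdac3f/f than in Hdac3f/f macrophages, and without LPS 0 were higher and 1 lower. The 18 were 17 without the library labelled untreated Lyz2-Cre-Hdac3f/f replicate 1, 9 without LPS-treated Lyz2-Cre-Hdac3f/f replicate 2, 11 without its replicate 3 and 9 without LPS-treated Hdac3f/f replicate 2. Rpa1, a subunit of the single-strand binding protein RPA, changed with LPS by -1.04 in Lyz2-Cre-Hdac3f/f and -1.67 in Hdac3f/f macrophages, and Gmnn, the inhibitor of Cdt1, by -1.51 and -2.57. Its sister subunit Rpa2 was higher with LPS in Lyz2-Cre-Hdac3f/f macrophages (0.76) and lower in Hdac3f/f macrophages (-0.36, a call lost in 8 alternatives), with an interaction of 1.12 (SE 0.19, adjusted p = 0.00445). The gene called lower without LPS was Rpa2 itself (-0.70). Tipin, of the fork protection complex, had the interaction 1.36 (SE 0.24, adjusted p = 0.00496), with -1.28 in Hdac3f/f macrophages. Mcmbp, which binds Mcm subunits, went up with LPS in both genotypes (0.75 in Lyz2-Cre-Hdac3f/f, 1.32 in Hdac3f/f) and had the 1 negative interaction of the list (-0.57, SE 0.13, adjusted p = 0.0188).

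Among 16 further genes of the E2F, RB and DREAM system, 3 were lower and 4 higher with LPS in Lyz2-Cre-Hdac3f/f macrophages, and 7 were lower and 4 higher in Hdac3f/f macrophages, and nothing particular to the list is read from these counts. Tfdp2, a dimer partner of E2F factors, changed by -2.09 and -3.55 in that order, with an interaction of 1.46 (SE 0.39, adjusted p = 0.0368) that was lost in 11 alternatives. The pocket proteins Rb1 (-1.07 and -1.65) and Rbl2 (-1.04 and -1.81) were lower in both genotypes. E2f3 (0.92 and 0.75), E2f4 (0.64 and 0.90) and E2f5 (1.30 and 1.20) were higher in both, unlike E2f1 and E2f2. With LPS, 6 of the 16 were higher and 1 lower in Lyz2-Cre-Hdac3f/f than in Hdac3f/f macrophages, with a median of 0.19. These counts ranged over 4 to 8 and 0 to 1 with a library left out. Without LPS 0 were higher and 2 lower. The repressor E2f8 was the gene lower with LPS (-0.52), and E2f8 (-0.68) and E2f7 (-1.14) were the 2 lower without it. The E2f8 call with LPS was lost in 8 alternatives (adjusted p up to 0.206), and the calls without LPS were lost in 4 for E2f8 (up to 0.0864) and 5 for E2f7 (up to 0.0944).

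Of 19 further nucleotide metabolism genes, 9 were lower in each genotype with LPS, 3 were higher in Lyz2-Cre-Hdac3f/f and 4 in Hdac3f/f macrophages. Samhd1, which breaks down deoxynucleotide triphosphates, averaged 870 CPM in LPS-treated Lyz2-Cre-Hdac3f/f and 1271 CPM in LPS-treated Hdac3f/f libraries, with changes of 0.82 and 1.64 over untreated libraries. Its interaction was -0.81 (SE 0.18, adjusted p = 0.0163). Dck, the kinase of the deoxycytidine salvage route, was higher in both (1.20 and 1.51). Paics and Mthfd1, of purine and one-carbon synthesis, were lower in both (-0.63 and -1.55 for Paics, -1.02 and -1.68 for Mthfd1). Mthfd2, the mitochondrial one-carbon enzyme, was the 1 gene of this list called between untreated genotypes (0.53, SE 0.11, adjusted p = 0.0113).

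Of 22 further S phase repair and chromatin genes, 13 were lower and 1 higher with LPS in Lyz2-Cre-Hdac3f/f macrophages, and 21 were lower and 1 higher in Hdac3f/f macrophages, with medians of -0.84 and -1.81. The gene called higher was the histone chaperone Asf1a in both (0.73 and 1.02). Dnmt1, the maintenance methyltransferase, averaged 57.0 ± 2.60 CPM in LPS-treated and 160 ± 10.6 CPM in untreated Lyz2-Cre-Hdac3f/f libraries, and 55.2 ± 4.53 CPM in LPS-treated and 139.9 ± 9.98 CPM in untreated Hdac3f/f libraries (SD, n = 3 each). Its changes were -1.49 and -1.34. With LPS, 9 of the 22 were higher and 1, the checkpoint kinase Wee1 (-0.81, a call lost in 5 alternatives), lower in Lyz2-Cre-Hdac3f/f than in Hdac3f/f macrophages. Usp1, a deubiquitinase of Pcna and of the Fanconi pathway, was among the 9 (1.04, SE 0.15, adjusted p = 0.00051), as was the histone gene regulator Casp8ap2 (1.32).

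Regulators of Cdk2, the partner of cyclin E, included 2 genes that changed in opposite directions. Cdkn1a, the inhibitor p21, averaged 897 ± 74.1 CPM in LPS-treated and 142 ± 17.2 CPM in untreated Lyz2-Cre-Hdac3f/f libraries, and 1717 ± 299 CPM in LPS-treated and 176 ± 35.0 CPM in untreated Hdac3f/f libraries (SD, n = 3 each). The changes were 2.66 (SE 0.17, adjusted p = 5.13e-08) and 3.29 (SE 0.18, adjusted p = 5.9e-09), and with LPS Cdkn1a was lower in Lyz2-Cre-Hdac3f/f macrophages (-0.94). Skp2, the ligase subunit that marks Cdk inhibitors for degradation, averaged 3.69 ± 0.263 CPM in LPS-treated and 20.4 ± 1.70 CPM in untreated Lyz2-Cre-Hdac3f/f libraries, and 2.94 ± 0.365 CPM in LPS-treated and 21.1 ± 2.50 CPM in untreated Hdac3f/f libraries (SD, n = 3 each). Its changes were -2.46 and -2.84. Cdk2 itself changed by -0.31 and -0.77, and cyclin A2 (Ccna2) by -0.63 and -1.46. In Lyz2-Cre-Hdac3f/f macrophages the call was lost in 11 alternatives for Cdk2 (adjusted p up to 0.168) and 7 for Ccna2 (up to 0.155).

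Mitosis genes, which follow S phase, were read in the same way. Of 24, 17 were lower with LPS in Lyz2-Cre-Hdac3f/f and 21 in Hdac3f/f macrophages, none was higher, and the medians were -0.88 and -1.56. Without LPS, 12 of the 24 were lower in Lyz2-Cre-Hdac3f/f than in Hdac3f/f macrophages, and 5 had a positive interaction. Without the library labelled untreated Lyz2-Cre-Hdac3f/f replicate 1 these counts were 2 and 2. The 12 became 5 without untreated Lyz2-Cre-Hdac3f/f replicate 2, 5 without its replicate 3, 2 without untreated Hdac3f/f replicate 2 and 3 without its replicate 3, and the 5 positive interactions ranged over 0 to 6 with each library left out. Their summed level was 113, 92.4 and 117 CPM in LPS-treated Lyz2-Cre-Hdac3f/f libraries and 105, 86.2 and 104 CPM in LPS-treated Hdac3f/f libraries. It was 135, 159 and 160 CPM in untreated Lyz2-Cre-Hdac3f/f libraries and 229, 221 and 210 CPM in untreated Hdac3f/f libraries, so that the untreated genotypes did not overlap and the LPS-treated ones did. Kif23, a kinesin of cytokinesis, changed with LPS by -1.48 and -2.74. With LPS, 4 of the 24 were higher and 3 lower in Lyz2-Cre-Hdac3f/f than in Hdac3f/f macrophages, beside 15.7% and 16.9% of all tested genes. The median was 0.22, and each count ranged over 1 to 6 with a library left out. The mitotic kinase Plk1 was lower in Lyz2-Cre-Hdac3f/f macrophages without LPS (-1.14) and with it (-0.90, a call lost in 4 alternatives).

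**Figure D5:**
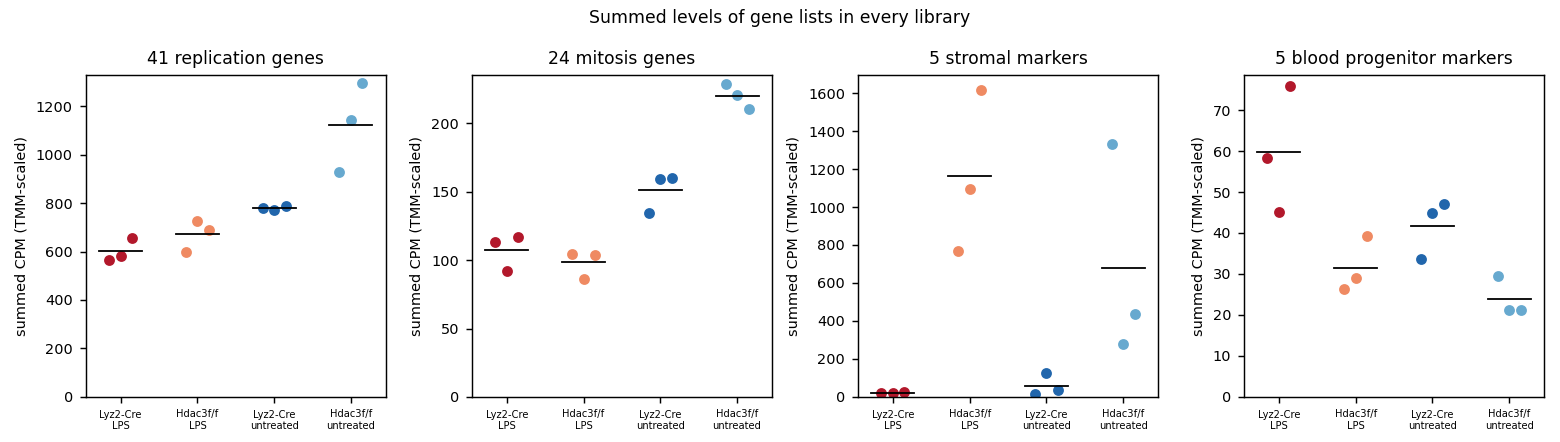
Summed CPM of the 41 replication genes, 24 mitosis genes, 5 stromal markers and 5 blood progenitor markers in every library, with group means as lines (Lyz2-Cre on the axis stands for Lyz2-Cre-Hdac3f/f). The sums of replication genes, with Pcna as the largest part, and of mitosis genes are highest in untreated Hdac3f/f macrophages. Stromal markers are far higher in Hdac3f/f than in Lyz2-Cre-Hdac3f/f libraries. The sum of blood progenitor markers, mostly Kit and Gata2, is higher in Lyz2-Cre-Hdac3f/f libraries.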

How the data were processed

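RNA-seq libraries of mouse bone marrow-derived macrophages were compared from the deposited table of all genes. Per the submitters' processing notes, TopHat2 and the mm10 build were used, and the counting tool, annotation and strand setting are not given in the sources used here. The authors deposited whole-number read counts per gene, which all tests used, and FPKM values, which were used for levels between genes. Groups came from the genotype label and the treatment protocol. Counts were filtered with filterByExpr, scaled by TMM and fitted in edgeR 4.0.16 (R 4.3.3, limma 3.58.1) by quasi-likelihood over all 12 libraries with a coefficient per group, and 5 contrasts were tested. The two-sided p-values were adjusted by Benjamini-Hochberg over 14286 genes, and genes under 0.05 were called. CPM are TMM-scaled. The fit was tested on simulated data. Libraries held 16553432 to 18706990 counts, and replicates of a group differed by more than sampling noise (chi-square per gene of 8.66 to 51.4). The labels do not say that replicates came from separate mice, so p-values measure the spread between these libraries.

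The 41 genes and all gene lists were chosen with earlier results of these data known. Values in every library are given for the called genes of lowest adjusted p in each comparison, those with the largest change, those against the majority, and the gene of highest mean CPM in each role. From each other list, up to 3 called genes of lowest p and up to 2 against the majority could be named in a comparison, and Hdac3 and Lyz2 always. Motifs were searched in RefSeq promoters of GRCm38.p6. Of the 41 genes, 21 overlap another gene. For 13 a gene on the opposite strand held over 10% as many counts, so reads where they overlap cannot be told apart. The 13 were Orc1, Orc6, Mcm7, Cdc45, Gins2, Rfc2, Rfc4, Rfc5, Fen1, Lig1, Tk1, Ccne2 and Chaf1a. Alternatives were DESeq2 1.42.0 (size factors and Wald test), library totals, no filter, a filter of 10 counts in every library of a group, only the groups compared, a replicate block, and leaving out each library.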

Additional observations from a re-analysis of the deposited data

Results flagged for a closer look

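The LPS response differed between the genotypes for 12 of the 41 replication genes by a test of the difference itself, the interaction. It was called in edgeR's quasi-likelihood test at an adjusted p under 0.05. Of all tested genes, 2.58% had a called positive and 5.54% a called negative interaction. From each other list only the called genes of lowest p are given, up to 3 per list. A positive value means that the log2 LPS response was higher in Lyz2-Cre-Hdac3f/f macrophages. Among the replication genes they were 1.40 for Cdc6, 1.24 for Prim1, 1.11 for Mcm7, 1.10 for Rrm2, 1.07 for Mcm4, 1.07 for E2f1, 1.03 for Uhrf1, 0.99 for Tk1, 0.96 for Rrm1, 0.91 for Mcm5, 0.72 for Mcm3 and 0.64 for Slbp. Among mitosis genes they were 1.51 for Ncapg, 1.30 for Kif11 and 1.26 for Kif23. Checkpoint and repair genes gave 1.79 for Chek1, 1.35 for Brca1 and 1.01 for Usp1. The E2F and RB lists gave 1.46 for Tfdp2, 1.06 for E2f6 and 0.77 for Rbl2. Further replication genes gave 1.36 for Tipin, 1.12 for Rpa2 and -0.57 for Mcmbp. Nucleotide genes gave 0.92 for Paics and -0.81 for Samhd1. Of these calls Cdc6, E2f1, Mcm3, Rrm2, Usp1, Paics, Rpa2 and Tipin held in every alternative. Among the replication genes the call was lost in 11 alternatives for Mcm5, 9 for Slbp, 8 for Prim1, 7 for Mcm7, 6 for Rrm1, 5 for Tk1, 4 for Uhrf1 and 2 for Mcm4, of 18 for each. Among the others it was lost in 15 for Chek1 (adjusted p up to 0.123), 14 for Brca1 (up to 0.122), 11 each for Tfdp2 and Rbl2, 9 each for E2f6 and Kif11, 8 for Mcmbp, 4 for Samhd1, 3 for Kif23 and 1 for Ncapg.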

How the results depend on the processing

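Of 99 calls on the 41 genes, 67 held in every alternative, namely 33 of 35 for LPS in Hdac3f/f macrophages, 15 of 26 for LPS in Lyz2-Cre-Hdac3f/f macrophages, 6 of 12 between untreated genotypes, 9 of 14 with LPS and 4 of 12 for the interaction (Cdc6, E2f1, Mcm3 and Rrm2). No called value changed sign. With library totals the counts were 3 higher and 36 lower for LPS in Lyz2-Cre-Hdac3f/f macrophages, 16 higher and 2 lower between LPS-treated genotypes, and 22 positive interactions, and the medians of all genes moved with them. Negative interactions numbered 1, Cdt1, with no filter and 1, Cdt1, with DESeq2's Wald test. Leaving out each library gave, for LPS, 4 to 5 higher and 13 to 22 lower in Lyz2-Cre-Hdac3f/f macrophages and 30 to 32 lower in Hdac3f/f macrophages. It gave 6 to 16 lower between untreated genotypes, 7 to 11 higher and 3 to 6 lower with LPS, and 4 to 16 positive and 0 to 2 negative interactions. Only some of the values that were not called were checked for a change of sign, so reversals among the rest are not counted. Among those checked, values of 3 genes turned round, all for LPS in Hdac3f/f macrophages. Tyms was -0.50 with library totals (adjusted p = 0.0413). Rfc5 was 0.0569 with DESeq2 size factors, 0.0580 with DESeq2's Wald test and -0.10 to 0.0595 with a library left out. Slbp was -0.15 to 0.0171 with a library left out. The cause was not tested. For genes outside the 41 the same alternatives were chosen after seeing the data: 88 of 128 calls held in all of them, Mthfd2 with LPS in Lyz2-Cre-Hdac3f/f macrophages was -0.0036 with library totals, and Hdac3 between LPS-treated genotypes was 0.17.

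The labels do not say whether equal replicate numbers pair the libraries, and the values do not settle it. Same-numbered libraries of compared groups had correlations of -0.404 to 0.217 in their deviations from the group means. In the LPS comparisons of Hdac3f/f and Lyz2-Cre-Hdac3f/f macrophages, 2 and 4 of 6 libraries were closest to their own number. In the untreated and LPS-treated genotype comparisons 0 and 4 of 6 were. With the replicate block the counts were 4 higher and 32 lower for LPS in Hdac3f/f macrophages, 5 and 19 in Lyz2-Cre-Hdac3f/f macrophages, 0 and 12 between untreated genotypes, 11 and 4 with LPS, and 14 positive and 0 negative interactions. Genes of low level, such as Orc1 at a mean of 1.02 CPM, Ccne2 at 1.97 CPM and Gins3 at 2.08 CPM, rest on few reads.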

Other observations

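The spread between replicates of the 41 genes differed by group. The median coefficient of variation was 13.5% in LPS-treated Lyz2-Cre-Hdac3f/f and 18.4% in LPS-treated Hdac3f/f libraries, and 8.46% in untreated Lyz2-Cre-Hdac3f/f and 13.7% in untreated Hdac3f/f libraries. Outside the E2F forms, the CHR element TTTGAA was in 12.5% of the 40 promoters found for 34 of the 41 genes, 17.9% of all promoters and 73.9% of those of mitosis genes. The CCAAT box was in 57.5%, 37.4% and 82.6% of the same promoters.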
